A study of Mus musculus with 75 samples.

Results

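The 9 libraries described here are RNA-seq libraries of enteric glial cells (EGC) from the myenteric plexus of the small intestine of Gpr37 knockout mice, taken 24 h after an injection of LPS (5 libraries) or of PBS (4 libraries). They were chosen by the column names of the 24 h count table, which hold genotype, treatment and region, and they make up 9 of the 37 libraries of that table and 9 of the 75 libraries of the whole study. Per the labels, every one of these mice was Gpr37-/-; Plp1eGFP, so that controls and treated mice alike carried the knockout and a green fluorescent reporter transgene, and the comparison group labelled Gpr37WT; Plp1eGFP carried the same reporter. LPS, a lipopolysaccharide of E. coli O111:B4, was given once into the peritoneum at 2 mg/kg of body weight, and controls received phosphate-buffered saline alone. Each library came from a different mouse. The LPS group held mice 11, 17 and 10 (male) and mice 6 and 21 (female), and the PBS group held mice 12 and 15 (male) and mice 20 and 7 (female). The labels used here give neither the ages of single mice nor how the cells were isolated. The design text names adult mice for the untreated part of the study. The study's title names the contribution of Gpr37 to reactive gliosis of the gut under inflammation, and the comparison of LPS with PBS within the knockout asks how glia that lack this receptor respond.

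Enteric glia surround the neurons of the gut wall, and their best known markers are the transcription factor Sox10, the calcium-binding protein S100b and the intermediate filament Gfap. LPS binds Cd14 and Tlr4 on responsive cells, which activates NF-kB and, through interferon production, the interferon-stimulated genes. Reactive glia, best described in brain astrocytes, raise acute-phase and antigen-presentation genes in response to such signals. Gpr37 is a G protein-coupled receptor of glia without an agreed ligand.

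Total counts ran from 2956187 to 15379210 in the LPS libraries and from 7430456 to 33283346 in the PBS libraries, and mice 10 and 6 of the LPS group were the shallowest at 2956187 and 3043843. Gpr37 itself had between 0 and 2 counts in each of the 9 libraries, which matches the knockout label. In the comparison group labelled wild type it stood at 6.5 to 17.4 CPM with PBS and at 0, 9.12, 13.1 and 5.36 CPM with LPS. The library at 0 (mouse 3, 0 Gpr37 counts in 4266678) did not show the gene that its label names as intact, although it held glial markers, with Sox10 at 88.8 CPM against 62.3 to 109 CPM in the other 3 LPS libraries of that group. In the colon, libraries labelled wild type with LPS also had few Gpr37 counts, 2 in mouse 3, 0 in mice 5 and 8, and 20 and 23 in the other 2, while the small intestine of mouse 8 had 100. Whether the label of mouse 3 is right was not tested, and the differences between genotypes are given with and without its small-intestinal library. All values below are counts-per-million (CPM) scaled by TMM factors, and values listed without mouse numbers stand in the order of mice 12, 15, 20 and 7 for PBS and of mice 11, 17, 10, 6 and 21 for LPS. Markers of other cells were present beside those of glia. The summed level of 20 glial identity genes was 15900, 7480, 10400 and 42000 CPM with PBS and 21400, 5610, 5880, 7050 and 4710 CPM with LPS. The library of mouse 7 (PBS) stood apart: its glial sum was the highest, and its sums of endothelial (32.5 CPM), epithelial (26.1 CPM) and mesothelial markers (49.1 CPM) were far below the 1310 to 2650, 1160 to 1270 and 2220 to 4730 CPM of the other 3 PBS libraries. The library of mouse 11 (LPS) stood apart in its glial sum and in its macrophage sum of 6800 CPM, against 582 to 2570 CPM in the other LPS libraries. The sum of 15 neutrophil markers did not overlap between the groups, at 2.51 to 153 CPM with PBS and 490 to 9980 CPM with LPS. Most of that sum was Lcn2, which cells other than neutrophils also make, and without it the sums were 0.794 to 15.6 and 17.0 to 2120 CPM. In bulk libraries, fewer cells of a type and less RNA per cell cannot be told apart. The part of these other cells in the results below was not tested.

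**Figure D1:**
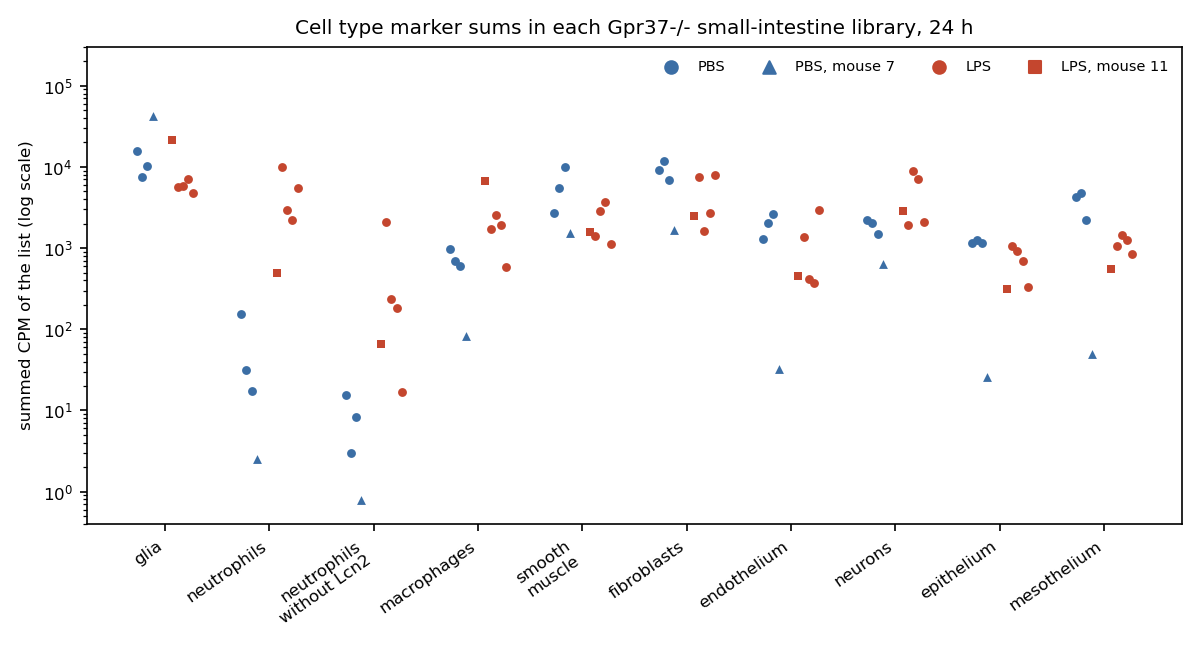
Summed CPM (log scale) of each cell type's marker list in the 9 Gpr37-/- small-intestine libraries at 24 h, 1 point per library, PBS in blue and LPS in red. Mouse 7 (triangle) has the highest glial sum, 42000 CPM, and mouse 11 (square) the highest of the LPS libraries, 21400 CPM; neutrophil sums do not overlap between the groups.

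Of 14903 genes tested, 107 (0.718%) differed between LPS and PBS by edgeR's quasi-likelihood test at a Benjamini-Hochberg adjusted p under 0.05, with 79 (0.530%) higher and 28 (0.188%) lower in the LPS libraries. Among the genes that rose were those of acute-phase proteins (Saa3, Lcn2, Serpina3n), interferon responses (Irf7, Isg15), antigen presentation (H2-T23), chemokines (Ccl5, Ccl2) and metal binding (Mt1, Mt2). Among those that fell were genes of the extracellular matrix (Postn, Col14a1) and of the cytoskeleton (Vim, Synpo). Log2 fold changes among the genes that rose ran from 0.84 to 10.79 with a median of 2.28, and among those that fell from -2.73 to -0.85 with a median of -1.57. The median over all genes tested was -0.05. In what follows, genes that rose, fell or were called did so by edgeR's test with all 9 libraries unless another test or setting is named. Groups did not overlap for 71 of the 79 genes that rose and for 24 of the 28 that fell, whereas over all genes tested 461 (3.09%) were higher in every LPS library than in every PBS library and 523 (3.51%) lower. On simulated counts of the same design, the test recovered 4.48% of genes changed 2-fold up or down (log2 size 1), 35.8% at log2 size 2 and 47.0% at log2 size 3, so that a gene that was not called may still have changed. The count moved with single libraries: it was 352 genes (226 higher, 126 lower) without mouse 11, 46 without mouse 7, 56 without mouse 12, 15 or 10, 55 without mouse 6, 67 without mouse 20 or 17, and 118 without mouse 21. It was 30 genes (29 higher, 1 lower) without mice 6 and 10 together, and 92 genes (52 higher, 40 lower), of which 41 were among the 107, with the 6 mice numbered 11 and above alone. Whichever library was omitted, 32 of the 107 genes were called. With the 2 groups fitted alone 47 genes were called, 30 of them among the 107. Among named genes the calls of Acod1, Ccl5, Saa3, Ms4a6c, Mt1, Mt2, Wfdc1, Serpina3n, Cp, H2-T23, H2-T22, Fkbp5, Irf7, Usp18, Isg15, Bst2, Gbp3, Vcam1, Sod2, Slc39a14, Zbp1, Marco, Zfas1, Snhg1, Snhg5, Casp4 and Dok3 were kept there, and those of the other 39 were lost.

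**Figure D2:**
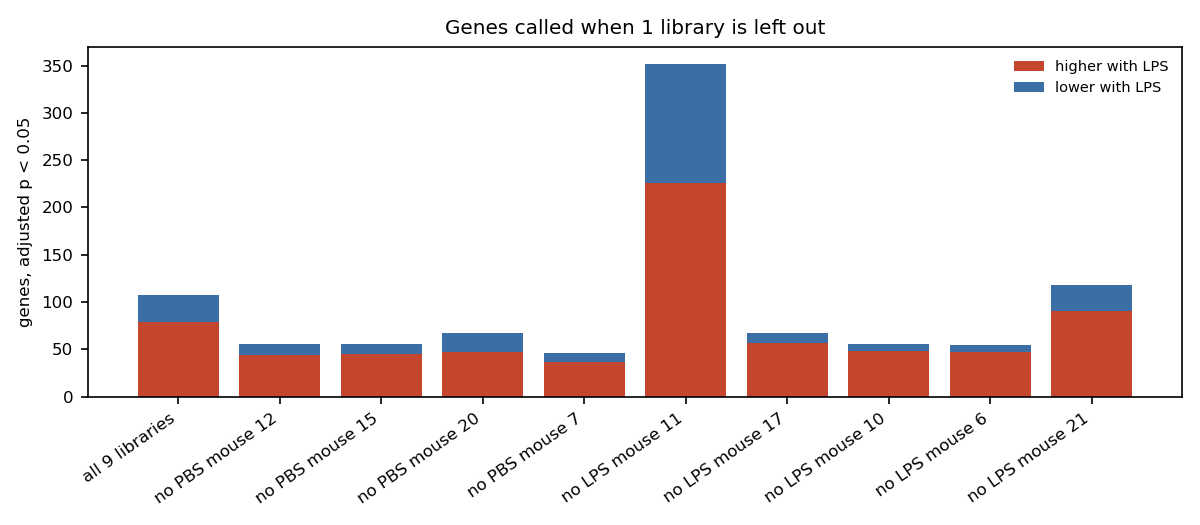
Number of genes with an adjusted p under 0.05 for LPS against PBS when all 9 libraries are used and when 1 library is left out, split into genes higher (red) and lower (blue) with LPS. Leaving out LPS mouse 11 gives 352 genes, and leaving out PBS mouse 7 gives 46.

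Acute-phase proteins carry or withhold metals and inhibit proteases in inflamed tissue. Of 18 tested members of this list, 5 rose (Serpina3n, Cp, Lcn2, Saa3 and Serpina3f), none fell, 13 did not pass the test and 17 had a fold change above 0, with a median log2 fold change of 4.69 (4.60 with genes whose PBS counts were at or under 3 set at their lower bound, and 5.63 without mouse 15). Serpina3n, a secreted inhibitor of serine proteases and a marker of reactive astrocytes, stood at 70.5, 36, 23 and 73 CPM with PBS and at 512, 1398, 782, 994 and 1198 CPM with LPS. Every LPS library lay above every PBS library, mouse 11 being the lowest of the treated mice, and the log2 fold change was 4.27 ± 0.62 (SE; edgeR adjusted p = 0.000365). Cp, the copper-binding ferroxidase ceruloplasmin, rose in the same way, from 41.3, 45.5, 81.7 and 27.2 CPM to 441, 772, 439, 169.8 and 637 CPM, with mouse 6 the lowest of the LPS group (log2 fold change 3.33 ± 0.53, edgeR adjusted p = 0.00134). Both genes kept their call when any 1 of the 9 libraries was left out, with adjusted p of at most 0.00512 and 0.00813.

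Saa3, an inflammatory serum amyloid A protein, reached the highest level of the genes that rose most. It stood at 82, 16.3, 3.24 and 1.72 CPM in the PBS libraries and at 7611, 24260, 9960, 7114 and 20040 CPM in the LPS libraries. The groups were far apart although the PBS values alone spread widely, with mouse 12 the highest (log2 fold change 9.06 ± 1.91, edgeR adjusted p = 0.0122). The call was lost without mouse 15, 20 or 7 (adjusted p up to 0.0662). Lcn2, lipocalin 2, which binds bacterial siderophores and is made by neutrophils and by reactive glia, went from 138, 28.5, 9.12 and 1.72 CPM to 425, 7866, 2678, 2044 and 5439 CPM. Mouse 11 was again the lowest of the LPS group, and Lcn2 kept its call without any single library but lost it when the 2 groups were fitted alone (log2 fold change 6.38 ± 1.19, edgeR adjusted p = 0.00389, up to 0.0293 with 1 library left out). Serpina3f, a close relative of Serpina3n whose reads may be shared with other Serpina3 genes, rose by a log2 fold change of 6.39 ± 1.47 from 0 to 1.52 CPM to 6.42 to 85.1 CPM (edgeR adjusted p = 0.0272). It lost its call without mouse 12, 20, 7, 10 or 6, with adjusted p up to 0.109. Single controls moved these folds, with log2 fold changes of 10.98 for Saa3 and 8.20 for Lcn2 without mouse 12 and of 8.07 for Serpina3f without mouse 15. Without mouse 11, 9 of the 18 acute-phase genes passed the test, and without mouse 20 or 7, 3 did. By DESeq2 14 of the 18 rose.

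Gene sets used to grade reactive astrocytes comprise a pan-reactive, an A1 and an A2 list. Among the 13 tested genes of the pan-reactive list, Lcn2, Timp1, Cp and Serpina3n rose and Vim fell, and the median log2 fold change was 1.13. Timp1, an inhibitor of matrix metalloproteinases, stood at 56.5, 35.5, 14 and 19.6 CPM with PBS and 94.5, 351, 429, 479 and 202 CPM with LPS. The lowest LPS library, mouse 11, was still above the highest PBS library, mouse 12 (log2 fold change 3.31 ± 0.59, edgeR adjusted p = 0.00286, at most 0.0228 without any 1 library). With the 2 groups fitted alone, Cp and Serpina3n were the 2 genes of this list that were called. The filament genes of the list, Gfap and Vim, were not among the rises. Gfap, the filament gene that defines gliosis in the brain, stood at 154, 97.6, 145 and 292 CPM with PBS and 143, 179, 409, 459.8 and 145 CPM with LPS. These values overlapped, with mice 10 and 6 above every PBS library and the other 3 within their range, and Gfap did not pass the test (log2 fold change 0.63 ± 0.66, edgeR adjusted p = 0.819, from 0.664 to 0.99 with 1 library left out). Without mice 6 and 10 its log2 fold change was -0.12. Vim, encoding vimentin and singled out after its values were seen, fell from 1881, 1604, 1422 and 2307 CPM to 1091, 679, 559, 834 and 806 CPM, with every LPS library below every PBS library (log2 fold change -1.18 ± 0.26, edgeR adjusted p = 0.0197). Vim is also abundant in fibroblasts and endothelium, and its call was lost without mouse 12, 7, 17, 10 or 6 (adjusted p up to 0.127).

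The A1 list, which marks the astrocyte state induced by LPS in the brain, had 3 of 12 tested genes higher and none lower, with a median log2 fold change of 1.13 as well. Without mouse 7 it had 1, H2-T23, and by DESeq2 or without mouse 11 it had 4. The 3 genes called with all 9 libraries were H2-T23, Gbp2 and Fkbp5. Fkbp5, a chaperone of the glucocorticoid receptor, rose from 14 to 29.9 CPM to 75 to 189.8 CPM (log2 fold change 2.40 ± 0.51, edgeR adjusted p = 0.0123). Its call was lost without mouse 12 or 7 (adjusted p up to 0.0657). In the A2 list, described after ischaemia, 1 of 13 tested genes rose, namely Cd14, against 3 by DESeq2, and the median log2 fold change was 0.48. Cd14, the co-receptor that hands LPS to Tlr4, stood at 15, 17.1, 8.49 and 0.661 CPM with PBS and 63.6, 100.1, 138, 62.9 and 67.4 CPM with LPS (log2 fold change 3.06 ± 0.73, edgeR adjusted p = 0.0351). It is also a marker of macrophages, mouse 7 was the lowest library at 0.661 CPM, and the call was lost in 7 of the 9 fits with 1 library left out (adjusted p up to 0.118; it was kept without mouse 11 or 21). Without mouse 11, 2 genes of the A2 list rose.

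Interferon-stimulated genes restrict viruses and bacteria inside cells. Of 33 tested members, 6 rose, none fell, 27 did not pass the test and 31 had a fold change above 0, against 46.1% of all genes. The median log2 fold change was 1.18, and 16 of the 33 were higher in every LPS library than in every PBS library. Irf7, the transcription factor that amplifies type I interferon, had the smallest adjusted p of these. It stood at 68.7, 72.5, 73.6 and 34.5 CPM with PBS and 262, 543, 420.1, 656 and 750.5 CPM with LPS. Mouse 7 was lowest among controls and mouse 11 lowest among treated mice, yet the groups were well apart (log2 fold change 3.08 ± 0.38, edgeR adjusted p = 4.02e-05, at most 0.000719 without any 1 library). Isg15, a ubiquitin-like modifier, went from 15.6, 13.1, 9.12 and 18.1 CPM to 42.8, 43.7, 50.5, 55.5 and 92.6 CPM, highest in mouse 21 (log2 fold change 2.03 ± 0.37, edgeR adjusted p = 0.00386). Usp18, the protease that removes Isg15 from proteins, rose by 2.05 ± 0.37 on the log2 scale from 32.7 to 68.7 CPM to 119.9 to 290.1 CPM (edgeR adjusted p = 0.00325). Bst2, or tetherin, which holds budding virions at the cell surface, stood at 134, 123, 157 and 148 CPM with PBS and 536, 258, 337, 397 and 407 CPM with LPS (log2 fold change 1.46 ± 0.28, edgeR adjusted p = 0.00577). The PBS values of Bst2 spanned a narrow range, and mouse 11 was the highest LPS library for this gene. Irf7, Isg15, Usp18 and Bst2 kept their calls whichever library was left out. The other 2 members that rose, Ifitm3 (1.31, edgeR adjusted p = 0.0122) and Zbp1 (2.00, edgeR adjusted p = 0.0169), both sensors or effectors against viruses, lost their calls without mouse 20 (adjusted p = 0.0573) and without mouse 12, 15 or 20 (up to 0.0964), respectively. Members that did not pass included Irf1 at a log2 fold change of -0.08 ± 0.39 and Irf9 at 0.24 ± 0.32. By DESeq2 11 of the 33 rose, and 10 rose with the 6 mice numbered 11 and above alone.

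The promoter windows of 4 of the genes that rose are shown because they carry the interferon-stimulated response element or the CEBP-type element in the letters searched here. Each window runs 300 bases, from 250 before to 50 after the annotated start, read 5′ to 3′ on the gene's strand from RefSeq on GRCm38.p6, and capitals mark every base covered by a match on either strand to ISRE (TTTC, 2 free bases, TTTC), GAS (TTC, 3 free bases, GAA), a short kappaB site (GGGA, 1 free base, TTTCC) or CEBP (TTGC, 2 free bases, AA). They lie at chr4:156200769-156201068 on the minus strand (Isg15), chr8:71537423-71537722 on the minus strand (Bst2), chr3:142620413-142620712 on the plus strand (Gbp2) and chr7:46715627-46715926 on the minus strand (Saa3).
Isg15: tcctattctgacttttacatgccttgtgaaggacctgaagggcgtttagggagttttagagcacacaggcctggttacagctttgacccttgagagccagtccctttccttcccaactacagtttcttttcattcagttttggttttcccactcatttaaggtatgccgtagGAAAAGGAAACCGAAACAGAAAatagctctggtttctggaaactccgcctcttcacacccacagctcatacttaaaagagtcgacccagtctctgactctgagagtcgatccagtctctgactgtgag
Bst2: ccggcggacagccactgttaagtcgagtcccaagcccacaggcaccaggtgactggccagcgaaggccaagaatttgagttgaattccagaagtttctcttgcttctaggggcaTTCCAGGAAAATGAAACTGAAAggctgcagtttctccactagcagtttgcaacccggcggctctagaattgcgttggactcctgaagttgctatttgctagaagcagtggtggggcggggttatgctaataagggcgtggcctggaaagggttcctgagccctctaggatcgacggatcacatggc
Gbp2: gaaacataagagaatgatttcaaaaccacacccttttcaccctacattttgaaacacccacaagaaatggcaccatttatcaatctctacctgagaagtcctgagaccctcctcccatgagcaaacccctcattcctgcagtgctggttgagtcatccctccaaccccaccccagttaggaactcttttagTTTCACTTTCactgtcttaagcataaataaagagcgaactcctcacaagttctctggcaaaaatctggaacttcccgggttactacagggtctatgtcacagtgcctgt
Saa3: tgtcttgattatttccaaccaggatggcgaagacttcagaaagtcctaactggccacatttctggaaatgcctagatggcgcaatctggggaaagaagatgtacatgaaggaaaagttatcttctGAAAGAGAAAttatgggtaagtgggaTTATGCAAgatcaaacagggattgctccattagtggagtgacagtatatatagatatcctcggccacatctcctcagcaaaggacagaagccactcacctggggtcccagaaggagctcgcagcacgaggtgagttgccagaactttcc
In Isg15 the ISRE letters match in 3 overlapping places, beginning at positions -78, -72 and -66 from the start, and in Bst2 in 2 overlapping places, at -130 and -124, with a GAS match at -136 that overlaps them. Gbp2 has 1 ISRE match, at -59, and Saa3 has 1 ISRE match at -125 and 1 CEBP match at -99. Windows were found for 58 of the 79 genes that rose (72 windows) and for 19 of the 28 that fell (28 windows). The ISRE letters were in 10 (13.9%) of the windows of genes that rose, in 1 (3.57%) of those of genes that fell and in 3.21% of 14869 windows of tested genes. For CEBP the shares were 19.4%, 7.14% and 8.83%, for GAS 15.3%, 3.57% and 6.86%, and for the kappaB letters 2.78%, 0% and 0.471%. Some genes have several windows that overlap, and a match of letters is a description of the window, not of binding.

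Guanylate-binding proteins, large GTPases that attack pathogen vacuoles, had 3 of 10 tested members higher (6 by DESeq2) and a median log2 fold change of 2.21. Gbp2 stood at 435, 327, 238 and 259.9 CPM with PBS and at 762, 1193, 2665, 3011 and 1560 CPM with LPS. The LPS values ranged widely, from mouse 11 at the bottom to mouse 6 at the top, and did not overlap the PBS values (log2 fold change 2.54 ± 0.53, edgeR adjusted p = 0.0111). Gbp4, named after its values were seen, was 30.2, 20.5, 14.3 and 13.5 CPM with PBS and 24.1, 107, 99.5, 127 and 161 CPM with LPS. Here mouse 11 lay inside the PBS range while the other 4 treated mice lay above it (log2 fold change 2.40 ± 0.55, edgeR adjusted p = 0.0277). Gbp3 rose by 1.79 ± 0.44 (edgeR adjusted p = 0.0452). None of the 3 kept its call in every fit with 1 library left out (7, 4 and 2 of 9 for Gbp2, Gbp4 and Gbp3, with adjusted p up to 0.0573, 0.111 and 0.127), and none of the 10 genes was called without mouse 20 or 7, or without mice 6 and 10 together.

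In the MHC class I pathway, which presents peptides at the cell surface, 3 of 20 tested genes rose (6 by DESeq2) and 19 had a fold change above 0, with a median of 0.61. H2-T23, which encodes the nonclassical molecule Qa-1, stood at 65.3, 50.2, 34.5 and 92.5 CPM with PBS and 261, 191, 291, 357 and 276 CPM with LPS. All treated mice were above all controls, by a log2 fold change of 2.18 ± 0.40 (edgeR adjusted p = 0.00386, at most 0.0309 without any 1 library). Psme1, a subunit of the PA28 proteasome activator, rose from 188, 174, 174 and 127 CPM to 230.5, 325, 405, 572 and 438 CPM (log2 fold change 1.25 ± 0.24, edgeR adjusted p = 0.00577, at most 0.043 without any 1 library). H2-T22, which lies next to H2-T23 and is so similar that reads may be shared, rose by 1.48 ± 0.34 (edgeR adjusted p = 0.0291; lost without mouse 12, 15, 20 or 10). Without mice 6 and 10, H2-T23 was the 1 gene of this pathway that was called. The common light chain B2m stood at 1787 to 5884 CPM with PBS and 3297 to 6006 CPM with LPS, overlapping because mouse 7 was high among the controls (log2 fold change 0.48 ± 0.37, edgeR adjusted p = 0.709). By edgeR, 0 of 10 MHC class II genes passed, with 0 at an unadjusted p under 0.05 and 0 by DESeq2. For complement the count was 0 of 20, with 6 at an unadjusted p under 0.05 and 2 called by DESeq2.

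**Figure D3:**
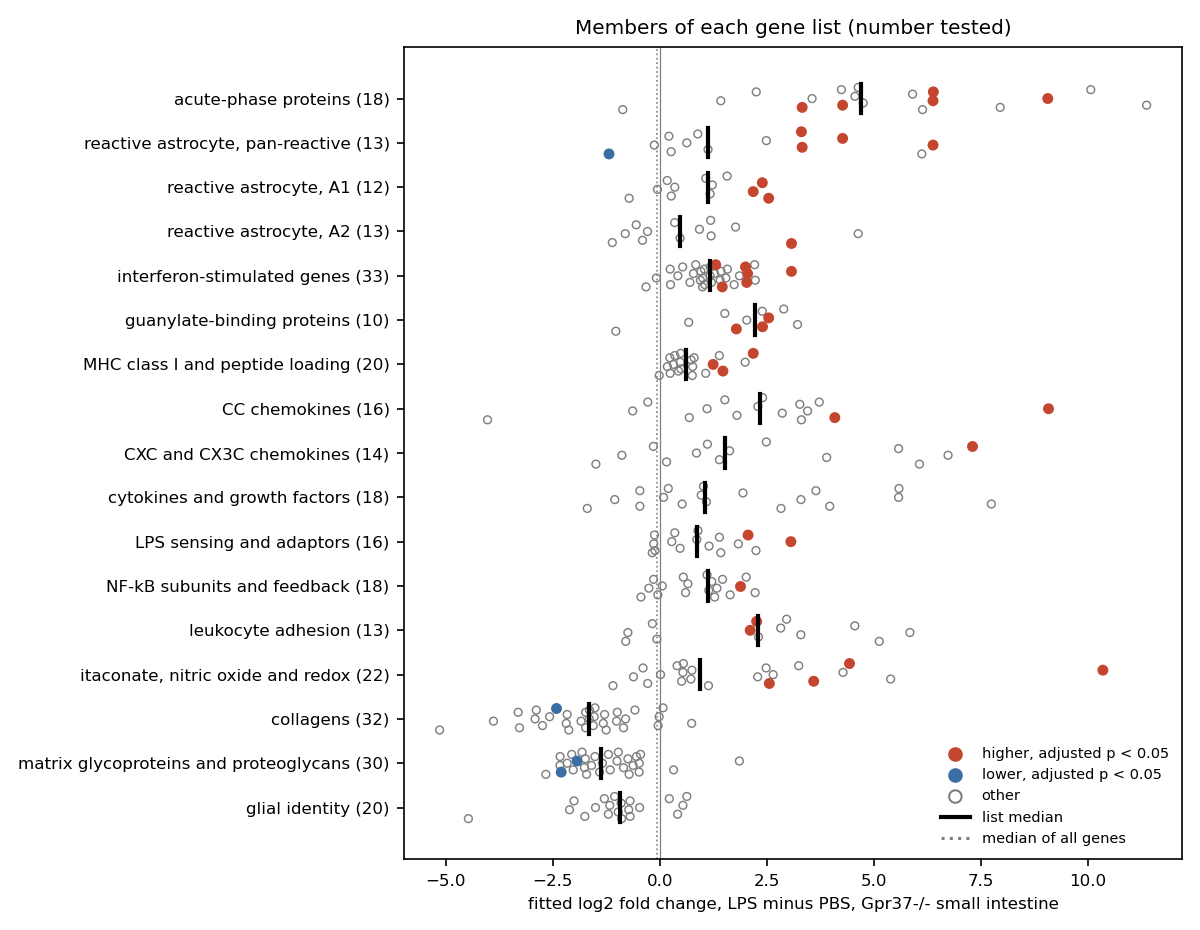
Fitted log2 fold change (LPS minus PBS) of each tested member of 17 gene lists in the Gpr37-/- small intestine, 1 point per gene, filled where the adjusted p was under 0.05, with the list median as a black bar and the median of all genes, -0.05, as a dotted line. Medians run from 4.69 for acute-phase proteins to -1.64 for collagens.

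Chemokines of the CC family, which draw monocytes and T cells, had 2 of 16 tested genes higher and a median log2 fold change of 2.35 (3.11 without mouse 15). DESeq2 called 4 higher and 1, Ccl28, lower. Ccl5 stood at 2.28, 1.86, 0.311 and 3.7 CPM with PBS and 251, 771, 1958, 2112 and 289 CPM with LPS. Mice 10 and 6 were the highest and mice 11 and 21 the lowest of the treated group, all far above the controls (log2 fold change 9.08 ± 1.52, edgeR adjusted p = 0.00202, at most 0.0132 without any 1 library). Mice 10 and 6 also had the highest sums of lymphocyte markers, 340 and 374 CPM against 9.27 to 61.3 CPM in the other treated mice and 1.85 to 20.4 CPM in controls. Ccl2, the main monocyte attractant, was 30.6, 58.5, 2.92 and 11.2 CPM with PBS and 412, 493, 478, 436 and 376 CPM with LPS. Its LPS values were the most even of the chemokines called (log2 fold change 4.09 ± 0.84, edgeR adjusted p = 0.0105; 0.0555 without mouse 7; log2 fold change 4.95 without mouse 15). Among CXC and CX3C chemokines 1 of 14 rose (4 by DESeq2), Cxcl5, a neutrophil attractant, from 0 to 2.28 CPM to 27.6 to 233 CPM (log2 fold change 7.30 ± 1.80, edgeR adjusted p = 0.0443; 9.09 without mouse 12); it kept its call only without mouse 11, when 3 genes of this family were called, with adjusted p up to 0.144 in the other fits that left out 1 library. Cxcl10, an interferon-inducible chemokine, overlapped between the groups at 1.77 to 91.5 and 86.7 to 434 CPM (log2 fold change 2.49 ± 1.09, edgeR adjusted p = 0.352). Of 18 cytokines and growth factors, edgeR called 0, with 5 at an unadjusted p under 0.05 and 1, Csf3, by DESeq2. Il6 stood at 8.42, 26.3, 1.21 and 0 CPM with PBS and 4.58, 25.6, 9.3, 2.25 and 9.85 CPM with LPS, and Il1b at 2.08, 6.77, 1.06 and 0 CPM and 61.2, 90.8, 2.86, 0.642 and 0.54 CPM. For both cytokines the groups overlapped, and Il1b was high in mice 11 and 17 alone.

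Among 16 genes of LPS sensing, Cd14 and Irak3 rose, and DESeq2 called 5. Irak3, an inhibitory kinase-like protein that restrains signalling from Toll-like receptors, was 7.03, 14.7, 17.4 and 5.03 CPM with PBS and 28.5, 72.5, 25.8, 49.8 and 55.4 CPM with LPS (log2 fold change 2.06 ± 0.49, edgeR adjusted p = 0.0338). It kept its call in 4 of 9 fits with 1 library left out (adjusted p up to 0.127; kept without mouse 20, 11, 10 or 21). The receptor gene Tlr4 stood at 16.6 to 27 CPM with PBS and 9.31 to 31.7 CPM with LPS, with overlap (log2 fold change -0.17 ± 0.52, edgeR adjusted p = 0.963). Of 18 genes of NF-kB subunits and feedback, Tnip1, which with A20 limits NF-kB, was the 1 that rose by edgeR. DESeq2 called 4 (Tnip1, Relb, Nfkbib and Nfkbia), and with mice numbered 11 and above alone edgeR called 4. It stood at 22.8, 22.3, 26.1 and 14.2 CPM with PBS and 38.9, 114, 83, 63.9 and 92 CPM with LPS, mouse 11 being lowest of the treated mice (log2 fold change 1.87 ± 0.33, edgeR adjusted p = 0.00282, at most 0.0168 without any 1 library; not called with the 2 groups fitted alone). Nfkbia, encoding the inhibitor IkBa, was higher in every LPS library than in every PBS library, 782 to 1044 against 261 to 516 CPM, without passing edgeR's test (log2 fold change 1.22 ± 0.38, edgeR adjusted p = 0.136).

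Of 13 genes of leukocyte adhesion, Vcam1 and Icam1 rose, and DESeq2 called 4. Vcam1, the ligand of leukocyte integrins on endothelium and stroma, stood at 157, 108, 84.5 and 87.4 CPM with PBS and 602, 307, 746, 574 and 393 CPM with LPS (log2 fold change 2.26 ± 0.45, edgeR adjusted p = 0.00764, at most 0.0442 without any 1 library; not called without mice 6 and 10 together). Icam1 was 103, 132, 56.5 and 9.79 CPM with PBS and 136, 339, 381, 248 and 522 CPM with LPS. The LPS library of mouse 11 was only just above the PBS library of mouse 15, and mouse 7 was very low, as it was for endothelial markers (log2 fold change 2.11 ± 0.51, edgeR adjusted p = 0.0418). Icam1 kept its call only without mouse 15 or 11, with adjusted p up to 0.131 in the other fits.

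Acod1, Sod2, Mt1 and Mt2 rose in every LPS library above every control. Of 22 genes of itaconate, nitric oxide and redox metabolism, 4 rose and none fell, and all 4 kept their calls in every fit that left out 1 library. Acod1, the enzyme that makes the antimicrobial metabolite itaconate, had 0 counts in 3 PBS libraries and 1 count in that of mouse 20, and stood at 41.7, 42.1, 35.8, 38.9 and 27.7 CPM with LPS. It was therefore at least 143-fold higher, against the mean CPM of 3 counts per PBS library, with an edgeR adjusted p of 0.00388 (up to 0.0384 without any 1 library). Its LPS values lay close together in all 5 mice, mouse 11 included. Sod2, the mitochondrial superoxide dismutase, was 115, 101, 98.8 and 98.1 CPM with PBS and 330.5, 838, 804, 651 and 424 CPM with LPS (log2 fold change 2.56 ± 0.37, edgeR adjusted p = 0.000365). The metallothioneins Mt1 and Mt2, small proteins that bind zinc and copper and that respond to glucocorticoids, rose by 3.60 ± 0.53 and 4.43 ± 0.72 (edgeR adjusted p = 0.000365 and 0.00172). Mt1 went from 432, 470.0, 378 and 254 CPM to 1307, 6456, 5510, 6246 and 3654 CPM, and Mt2 from 119, 151, 68 and 36.9 CPM to 454, 2658, 2525, 2734 and 1746 CPM. In both, mouse 11 was well below the other treated mice and still above every control. Of 15 genes of iron handling, Lcn2, Cp and Slc39a14 rose, and DESeq2, or edgeR without mouse 11, called 5. Slc39a14, the importer ZIP14 of zinc and non-transferrin iron, stood at 1.32 to 3.47 CPM with PBS and 7.7 to 45.3 CPM with LPS (log2 fold change 3.57 ± 0.73, edgeR adjusted p = 0.0105; 0.0528 without mouse 7). The nitric oxide synthase Nos2 was at 0 to 4.75 CPM with PBS and 0 to 6.24 CPM with LPS (log2 fold change -0.61 ± 1.25, edgeR adjusted p = 0.933). Of 16 glucocorticoid target genes, Fkbp5, Mt1, Mt2 and Lcn2 rose, and the median was 0.69.

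Several of the largest rises were genes typical of myeloid cells. S100a8, a calprotectin subunit abundant in neutrophils, was 0.495, 0, 0.0622 and 0.265 CPM with PBS and 12.8, 859, 109, 62.9 and 3.66 CPM with LPS, spread over more than 2 orders of magnitude in the treated group and highest in mouse 17 (log2 fold change 10.14 ± 2.47, edgeR adjusted p = 0.0418). The sum of neutrophil markers was also highest in mouse 17, at 9980 CPM. Il1r2, the decoy receptor of interleukin 1, had at most 2 counts in each PBS library and 1.38, 118, 20.4, 29.2 and 0.66 CPM with LPS, which made it at least 131-fold higher (edgeR adjusted p = 0.0461). Mouse 17 carried most of this bound, which was 49.6-fold without it. The log2 fold change of S100a8 was 8.01 without mouse 17 and 11.13 without mouse 12. Both calls were kept only without mouse 11 or 21, with adjusted p up to 0.133 and 0.15 in the other fits. Of the 15 neutrophil markers tested, these 2 and Lcn2 rose, and the list median was 6.99 (5.08 with 8 genes at their lower bound). Without mouse 17 the median was 4.15, and without mouse 12 it was 8.22. Without mouse 11, 5 of these markers passed, without mouse 21, 4, and without any other single library 1, Lcn2. DESeq2 called 8 of the 15, and with a sex covariate or with mice numbered 11 and above alone edgeR called Lcn2 alone. Ly6g, a surface protein of neutrophils, stood at 0, 0, 0.0311 and 0 CPM with PBS and 0, 3.52, 0.358, 0 and 0 CPM with LPS. Mpo, the granule peroxidase, and Clec4d had 0 counts in all 4 PBS libraries, and with LPS Mpo reached 0 to 0.66 CPM and Clec4d 0.961 to 5.93 CPM.

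The Ms4a genes of monocytes and macrophages had another order among the treated mice. Ms4a6c stood at 9.71, 3.47, 6.66 and 1.32 CPM with PBS and 226, 88.4, 205, 132 and 25 CPM with LPS, and Ms4a6d at 7.03, 2.45, 1.62 and 0.397 CPM and 286, 54.5, 155, 175 and 21.5 CPM. Both were highest in mouse 11 and lowest, among treated mice, in mouse 21, which was also the order of the extremes of the macrophage marker sum (6800 and 582 CPM). Log2 fold changes were 4.67 ± 0.82 and 5.59 ± 0.93 (edgeR adjusted p = 0.00282 and 0.00202), and both kept their calls without any 1 library, with Ms4a6d at 6.55 without mouse 12. Ms4a4a rose by 4.85 ± 1.15 (edgeR adjusted p = 0.0339), but was called only without mouse 11 or 21 (adjusted p up to 0.125 otherwise). Fpr2, a receptor for formyl peptides, and Jaml, a junctional adhesion molecule of leukocytes, rose by 6.97 ± 1.41 and 5.18 ± 1.08 (edgeR adjusted p = 0.0111 and 0.0116). Fpr2 lost its call without mouse 12 or 7 (adjusted p up to 0.0528) and Jaml without mouse 15 (0.0662). The log2 fold change of Fpr2 was 8.64 without mouse 15, and that of Jaml 5.97 without mouse 7 and 4.57 without mouse 6. Of 20 macrophage and monocyte markers, Cd14 was the 1 that passed the test, DESeq2 called 7, edgeR without mouse 11 called 2, 20 of 20 had a fold change above 0, and the median was 2.20. Csf1r, the growth factor receptor that defines macrophages, overlapped between the groups, at 13.9 to 91 CPM with PBS and 27.9 to 154 CPM with LPS (log2 fold change 0.56 ± 0.75, edgeR adjusted p = 0.869). Lyz2 was 288, 219.9, 183 and 16.8 CPM with PBS and 3660, 196, 589, 268 and 81 CPM with LPS, so that mouse 11 was far above every other library. Ubd, a ubiquitin-like modifier induced by interferon gamma and TNF and best known from dendritic and epithelial cells, stood at 0.594, 0, 0.0311 and 0.529 CPM with PBS and 1.38, 35.6, 39, 109 and 28.4 CPM with LPS (log2 fold change 7.44 ± 1.41, edgeR adjusted p = 0.00443, at most 0.0366 without any 1 library, with log2 fold changes from 6.73 without mouse 6 to 8.35 without mouse 12), mouse 11 being close to the controls.

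**Figure D4:**
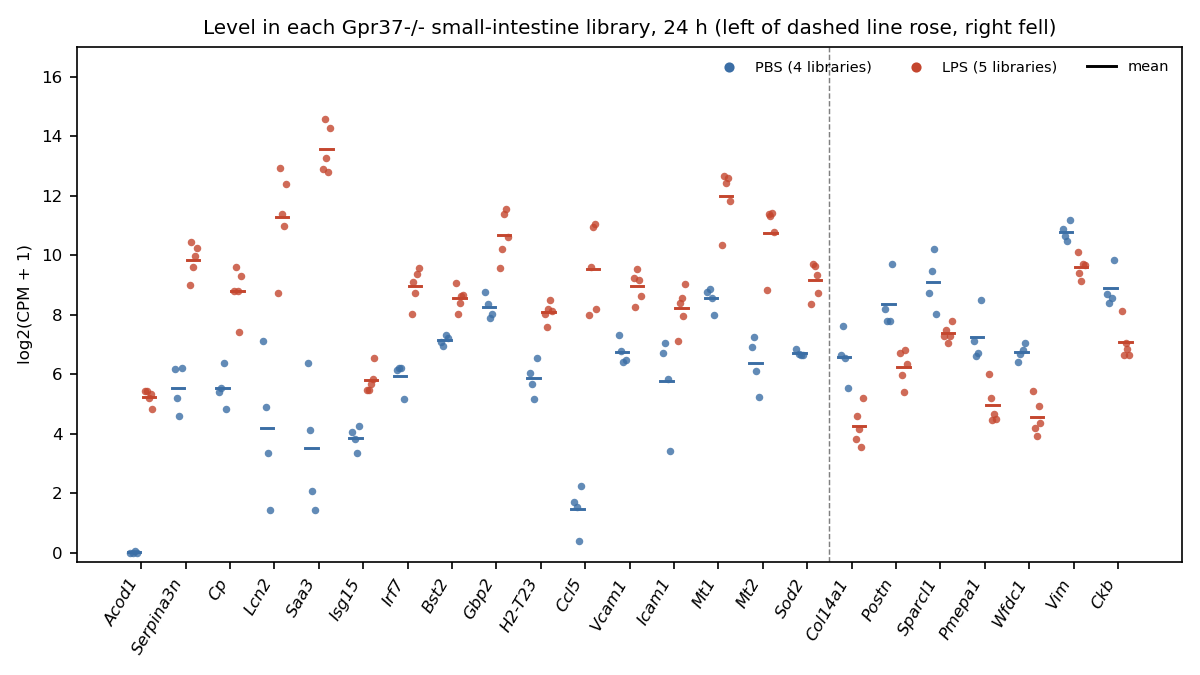
log2(CPM + 1) of 23 genes in each of the 9 Gpr37-/- small-intestine libraries, PBS in blue and LPS in red, 1 point per library, with the group mean as a bar. The 16 genes left of the dashed line rose and the 7 right of it fell; the groups do not overlap for any of the 23.

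Col14a1, Postn and Sparcl1, genes of the extracellular matrix, fell. Of 32 tested collagen genes, 30 had a fold change below 0 and the median was -1.64, and Col14a1 was the 1 gene that passed edgeR's test, against 8 by DESeq2. Of 30 matrix glycoproteins and proteoglycans, Postn and Sparcl1 fell by edgeR's test, none rose, and the median was -1.37. DESeq2 called 7 lower and 1, Vcan, higher, and edgeR without mouse 11 called 3 lower and 1 higher. Col14a1, a collagen found on the surface of collagen fibrils, stood at 99.2, 195, 91.7 and 45.8 CPM with PBS and 13, 23.4, 16.8, 10.6 and 35.8 CPM with LPS. The highest treated mouse, 21, was just below the lowest control, 7 (log2 fold change -2.43 ± 0.55, edgeR adjusted p = 0.0245). Postn, or periostin, which binds integrins and is expressed by fibroblasts and by glia of peripheral nerve, was 289, 220.4, 222 and 838 CPM with PBS and 104, 62.1, 40.8, 111 and 79.9 CPM with LPS (log2 fold change -2.30 ± 0.46, edgeR adjusted p = 0.00769). Mouse 7 was far above the other controls for Postn, and without it the log2 fold change was -1.55 and no longer passed (adjusted p = 0.127). Sparcl1, or hevin, a synaptogenic protein of astrocytes that is also made by endothelium and stroma, went from 421, 700.2, 1169 and 261 CPM to 154, 177, 133, 155 and 218 CPM (log2 fold change -1.93 ± 0.43, edgeR adjusted p = 0.0196). Treated mice lay close together for Sparcl1 and controls spread widely. Col14a1 and Sparcl1 each kept their calls in 4 of 9 fits with 1 library left out, with adjusted p up to 0.142 and 0.142. Without mouse 11, 5 collagen genes fell, and without mouse 21, 2. With the 2 groups fitted alone no member of the collagen, glycoprotein or TGF-beta lists was called. Without mice 6 and 10 no member of the collagen or glycoprotein lists was called, and the medians were -1.10 and -0.87. The sum of fibroblast markers was 1680 to 11900 CPM with PBS, with mouse 7 the lowest, and 1620 to 8010 CPM with LPS. The 9 mesothelial markers had a median log2 fold change of -1.92, with none called by edgeR, 1 at an unadjusted p under 0.05 and 1 called by DESeq2.

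Pmepa1, a target and feedback inhibitor of TGF-beta signalling, fell with Postn among 22 genes of that pathway, whose median was -0.41. It stood at 139, 96.8, 104 and 357 CPM with PBS and 63.4, 36.1, 20.8, 24.4 and 21.7 CPM with LPS (log2 fold change -2.38 ± 0.46, edgeR adjusted p = 0.00532; -1.70 and 0.0893 without mouse 7). As for Postn, mouse 7 was the highest control. Wfdc1, a secreted protein with a WAP domain, was the most stable of the falls. It was 84.8, 100.5, 112 and 132 CPM with PBS and 42.3, 17.4, 14.3, 29.5 and 19.3 CPM with LPS, and controls varied little (log2 fold change -2.12 ± 0.37, edgeR adjusted p = 0.00282, at most 0.0168 without any 1 library). Synpo, the actin-bundling protein synaptopodin, and Fhl1, a LIM protein of muscle, fell by log2 fold changes of -1.77 ± 0.38 and -1.59 ± 0.39 (edgeR adjusted p = 0.0166 and 0.0418). Synpo lost its call without mouse 12, 7, 10 or 6 (adjusted p up to 0.0806), and Fhl1 kept it only without mouse 7 (0.17 at the highest). Smooth muscle markers summed to 1530 to 9970 CPM with PBS and 1110 to 3660 CPM with LPS, and 14 of 14 had a fold change below 0 with none called by edgeR or DESeq2 and 5 at an unadjusted p under 0.05. Ckb, the brain creatine kinase, was 416, 335, 380.3 and 922 CPM with PBS and 278, 99.9, 133, 114 and 99.5 CPM with LPS. Mouse 11 was far above the other treated mice, and the call (log2 fold change -1.82 ± 0.45, edgeR adjusted p = 0.043) was kept only without it (up to 0.279 in the other fits). The serine protease gene Prss23 and its antisense gene Prss23os fell alike, by -1.63 ± 0.34 and -1.69 ± 0.36 (edgeR adjusted p = 0.0124 and 0.0123). The sources used here do not state that counting used strand, so the reads of this pair cannot be told apart. Both lost their calls without mouse 15, 7, 10 or 6 (adjusted p up to 0.0662 and 0.0639).

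Some further called genes are described here that were picked after their values were seen. Marco, a scavenger receptor of macrophages, had 0 counts in all 4 PBS libraries and 36, 3.15, 37.6, 32.8 and 9.85 CPM with LPS, highest in mice 11, 10 and 6 (at least 91.6-fold higher, edgeR adjusted p = 0.0418). Fcer1g, the signalling chain of Fc receptors on myeloid cells, stood at 46, 45.8, 34.4 and 7.01 CPM with PBS and 653, 288, 729, 517 and 58.6 CPM with LPS, and was lowest among treated mice in mouse 21, as the macrophage marker sum was (log2 fold change 3.75 ± 0.93, edgeR adjusted p = 0.0445). Marco and Fcer1g were called only without mouse 11 or 21, with adjusted p up to 0.126 and 0.162 in the other fits that omitted a library. Host genes of small nucleolar RNAs, a group put together after the values were seen and so given without a test of the group, comprised 16 tested genes (Zfas1, Gas5 and those named Snhg). Of these, Zfas1, Snhg1, Snhg3, Snhg5 and Snhg6 rose, by log2 fold changes of 1.99 to 2.28, and the other 11 were not called. Zfas1 was 16.3, 14.5, 25.5 and 11.8 CPM with PBS and 56.2, 79, 75.8, 76.1 and 51.8 CPM with LPS, with all treated mice close together (edgeR adjusted p = 0.00369), and Snhg1 was 11.2, 10.2, 15.8 and 12.7 CPM and 36, 43.9, 67.3, 89.6 and 31 CPM (edgeR adjusted p = 0.00588). Zfas1 and Snhg1 kept their calls without any 1 library (adjusted p at most 0.0197 and 0.0369), and Snhg3, Snhg5 and Snhg6 in 7, 2 and 5 of 9 such fits (up to 0.0619, 0.118 and 0.0785). Rbm3, a cold-inducible RNA-binding protein, stood at 24.6, 30.9, 15.7 and 12.6 CPM with PBS and 18.3, 166, 179.6, 262 and 139.8 CPM with LPS. Mouse 11 was within the range of the controls and the other 4 treated mice far above it (log2 fold change 2.87 ± 0.51, edgeR adjusted p = 0.00286), and the overlapping antisense gene Rbm3os, whose reads cannot be told apart from those of Rbm3, moved alike (2.74 ± 0.56). Samhd1, a nucleotide hydrolase that restricts retroviruses, rose from 24.9 to 36.4 CPM to 57 to 221 CPM (log2 fold change 1.89 ± 0.34, edgeR adjusted p = 0.00324, at most 0.0206 without any 1 library). Casp4, the caspase that senses LPS inside cells, rose from 11.9 to 17.3 CPM to 36.1 to 65.1 CPM (log2 fold change 1.78 ± 0.43, edgeR adjusted p = 0.0418), a call kept only without mouse 11, 17 or 21 (0.129 at the highest).

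Among falls picked in the same way, Rcn3, a calcium-binding chaperone of the secretory pathway, was 325, 327, 264 and 293 CPM with PBS and 164, 108, 82.3, 54.3 and 102 CPM with LPS, with even controls (log2 fold change -1.56 ± 0.29, edgeR adjusted p = 0.00432). Ccnd2, a cyclin of the early cell cycle, fell from 365, 406, 462 and 242 CPM to 209, 198, 191, 138 and 192 CPM (log2 fold change -0.99 ± 0.19, edgeR adjusted p = 0.00532). Rcn3 and Ccnd2 kept their calls without any 1 library (adjusted p at most 0.021 and 0.0421). Scd2, a fatty acid desaturase of brain and peripheral nerve, stood at 480.3, 324, 241 and 1234 CPM with PBS and 242, 87.5, 32.9, 62.9 and 71.6 CPM with LPS. Mouse 7 was the highest control and mouse 11 the highest treated mouse, the same libraries that were high in glial markers, and mouse 11 overlapped mouse 20 (log2 fold change -2.52 ± 0.47, edgeR adjusted p = 0.00388; -1.75 and 0.0664 without mouse 7, -3.11 without mouse 11). Ptn, a growth factor that binds heparan sulphate, was 232, 199, 214 and 330.3 CPM with PBS and 158, 53.9, 74.1, 69.7 and 54.2 CPM with LPS, again with mouse 11 the highest treated mouse (log2 fold change -1.57 ± 0.37, edgeR adjusted p = 0.0355), and its call was kept only without that mouse (up to 0.171 otherwise). The part of the glial share of each library in these values was not tested.

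None of 20 glial identity genes passed edgeR's test, although 16 had a fold change below 0 and the median was -0.94. At an unadjusted p under 0.05 the count was 6, and by DESeq2 it was 0. Sox10 stood at 281, 121, 136 and 984 CPM with PBS and 466, 146, 60.8, 53.6 and 120.4 CPM with LPS. The controls spread from mouse 15 to mouse 7, and mouse 11 alone among treated mice was high (log2 fold change -1.17 ± 0.79, edgeR adjusted p = 0.64). S100b was 419, 181, 360.4 and 688 CPM with PBS and 448, 89.1, 58.3, 57.5 and 74.5 CPM with LPS, where the 4 treated mice other than mouse 11 were below every control (log2 fold change -1.50 ± 0.66, edgeR adjusted p = 0.359). Without mouse 11, 3 of the 20 genes fell, among them S100b (-2.50 ± 0.65, edgeR adjusted p = 0.0328) and Fabp7, a fatty acid-binding protein of glial progenitors (-3.36 ± 0.86, edgeR adjusted p = 0.0311), and the list median was -1.64. Without mouse 7 none was called and the median was -0.17. Fabp7 is named because it passed in that fit. With the 6 mice numbered 11 and above alone, none was called, the median was -0.08, and Sox10 stood at a log2 fold change of 0.48.

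Markers of neurons, which lie beside glia in the plexus, had a median log2 fold change of 1.26, with 17 of 19 above 0, none called by edgeR or DESeq2 and 5 at an unadjusted p under 0.05. The median was 0.47 without mice 10 and 6 and 0.15 with mice numbered 11 and above alone. Their sum was highest in mice 10 and 6, at 8790 and 7020 CPM, against 1900 to 2880 CPM in the other treated mice and 634 to 2190 CPM in controls. Those 2 libraries also had the highest share of mitochondrial counts, 16.6% and 12.2%, against 2.43% to 6.12% in the other 7. The 8 genes of the mitochondrial genome had a median log2 fold change of 1.02, with none called by edgeR or DESeq2 and none at an unadjusted p under 0.05, and it was -0.12 without those 2 libraries. For proliferation and immediate early genes edgeR and DESeq2 called 0 of 21 and 0 of 25, with 1 of each at an unadjusted p under 0.05. Of 20 genes of glucose uptake and glycolysis edgeR called 0, DESeq2 1 and 5 had an unadjusted p under 0.05.

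The same contrast in mice labelled Gpr37WT (4 LPS and 6 PBS libraries of the small intestine, in the same fit and from other mice) gave 1069 genes (7.17%), of which 623 (4.18%) were higher and 446 (2.99%) lower. Without mouse 3, the LPS library with 0 Gpr37 counts, it gave 641 genes (4.22%), 445 (2.93%) higher and 196 (1.29%) lower. The median standard errors of the log2 fold changes were similar, 0.64 in the knockout and 0.62 in the wild type. Of the 107 genes called in the knockout, 95 (88.8%) were called in the same direction in the wild type, which is 8.89% of the wild type's 1069. Without mouse 3 the overlap was 89 genes (83.2% of 107 and 13.9% of 641). Among the other 12, named because they are the exceptions, were the rises Atp6v1b2, Dok3, Fam49b and Limd2 and the falls Chpf, Pdlim1, Postn, Ptn, Tagln2, Tspan15 and Vim. Of the 1069 genes called in the wild type, 988 had a fold change closer to 0 in the knockout, but these genes were chosen for passing the test in the wild type. Without mouse 3, 597 of the 641 did. Of the 95 called in both, 63 were closer to 0 in the knockout, and of the 89 without mouse 3, 63. The difference itself was tested as an interaction of genotype and treatment. edgeR called 0 genes, the smallest adjusted p being 0.0855, with 578 at an unadjusted p under 0.05. DESeq2 called 59, of which 41 had a higher and 18 a lower log2 fold change in the knockout than in the wild type. Leaving out 1 of the 19 libraries gave 0 to 2 genes. Those counts were 1 without wild-type PBS replicate 4, 2 without wild-type LPS replicate 4 and 0 otherwise, also without mouse 3 (smallest adjusted p = 0.188, 549 at an unadjusted p under 0.05). A count of 0 does not show that the genotypes respond alike.

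Differences are given as values for some genes, which include markers of gliosis but were picked without a rule and with earlier results of these data known. Gfap was 119.6 to 397 CPM in wild-type controls and 384 to 3134 CPM after LPS, a log2 fold change of 2.58 ± 0.63 (edgeR adjusted p = 0.00928), against 0.63 ± 0.66 in the knockout. The difference, knockout minus wild type, was -1.95 ± 0.90 (unadjusted p = 0.0375 by edgeR, adjusted p = 1). Lcn2 rose in both genotypes, by 9.00 ± 1.12 in the wild type, and the difference was -2.62 ± 1.25 (edgeR unadjusted p = 0.044, adjusted p = 1). For Serpina3n the difference was -0.82 ± 0.72 (edgeR adjusted p = 1). Serpina3f reached 169 to 481 CPM in treated wild-type mice and 6.42 to 85.1 CPM in treated knockouts, without overlap, from 0 to 0.141 and 0 to 1.52 CPM in controls (edgeR's interaction test, adjusted p = 1). The differences for Gbp2 and Postn were -1.49 ± 0.67 and -1.41 ± 0.62 (edgeR unadjusted p = 0.0334 and 0.0294, adjusted p = 1 and 1), and the fitted fall of Postn was the larger in the knockout. Without mouse 3 the differences were -2.15 ± 0.94 for Gfap, -2.52 ± 1.31 for Lcn2, -0.86 ± 0.76 for Serpina3n, -6.18 ± 2.18 for Serpina3f, -1.51 ± 0.71 for Gbp2 and -1.59 ± 0.64 for Postn, and none passed edgeR's test after adjustment. Other single libraries moved some differences further. Nearer to 0 were -0.85 for Lcn2 without knockout mouse 12 (PBS), -0.72 for Postn without knockout mouse 7 (PBS) and -1.02 for Gfap without wild-type LPS replicate 2. Further from 0 were -3.06 for Lcn2 without knockout mouse 17 (LPS), -2.26 for Gfap without wild-type LPS replicate 4 and -8.04 for Serpina3f without wild-type PBS replicate 2. Without knockout mice 6 and 10 together (LPS), Gfap was at -2.73 and Gbp2 at -2.12. The wild-type rise of Gfap without mouse 3 was 2.78 ± 0.67 (edgeR adjusted p = 0.0118).

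Calhm6, an interferon-inducible calcium homeostasis modulator that no list here holds, is named because it had the smallest interaction p. It was 0.495, 1.27, 0.249 and 1.72 CPM in knockout controls and 6.24, 2.78, 10.4, 3.53 and 4.74 CPM in treated knockouts, against 0 to 0.375 CPM and 15 to 112 CPM in the wild type. Every treated wild-type library was above every treated knockout library, and the knockout fold change did not pass the test (log2 fold change 2.58 ± 0.91, edgeR adjusted p = 0.203). The wild-type controls had a median of 0 CPM, so the size of the interaction depends on how zeros are handled. Its adjusted p by edgeR was 0.0855, and 0.188 without mouse 3. Calhm6 was called without wild-type PBS replicate 4 (0.0162) or wild-type LPS replicate 4 (0.0247), with the 4 groups fitted alone (0.0246), with a sex covariate (0.0289) and by DESeq2 (1.78e-05). By edgeR it was not called when any other single library was left out (up to 0.371), or mice 6 and 10 together (0.173). Nor was it called with RLE scaling (0.0972), no filter (0.0843), a covariate for mouse number (0.128), mice numbered 11 and above alone (0.352) or a replicate block (0.535).

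By list, interferon-stimulated genes had a median difference between genotypes of -0.62, with 30 of 33 below 0 (lower fold change in the knockout), and MHC class I genes of -0.77, with 20 of 20 below 0. Over all genes the median was 0.09 and 44.4% were below 0. In the wild type 22 of the 33 interferon-stimulated genes and 15 of the 20 MHC class I genes were called higher, against 6 and 3 in the knockout. Without mouse 3 the wild-type counts of the 2 lists were 21 and 11, against 445 (2.93%) over all genes. The median differences were then -0.64 (31 of 33 below 0) and -0.76 (19 of 20). For Tap1, the peptide transporter, named after its values were seen, the difference was -1.80 ± 0.54 (edgeR unadjusted p = 0.0022, adjusted p = 1), and -1.73 ± 0.57 without mouse 3. For macrophage markers the median difference was 1.79, with 0 of 20 below 0, and 1.63 without mouse 3. Members of a list are measured in the same libraries, and the difference was tested gene by gene only.

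**Figure D5:**
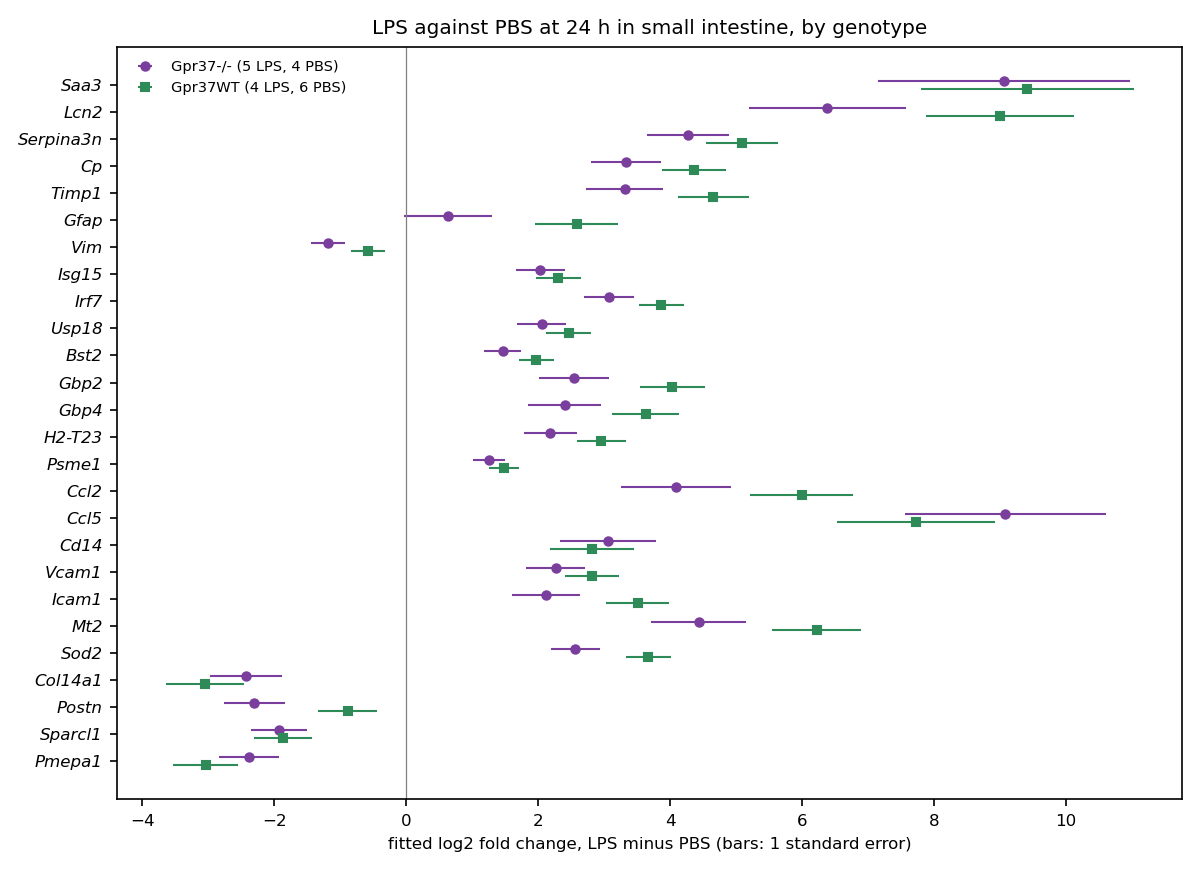
Fitted log2 fold change, LPS minus PBS, with 1 standard error, of 26 genes in the small intestine of Gpr37-/- (circles, 5 LPS and 4 PBS libraries) and Gpr37WT mice (squares, 4 LPS libraries, mouse 3 included, and 6 PBS libraries) at 24 h. The rises are nearer to 0 in the knockout except Ccl5 and Cd14, and Gfap is at 0.63 against 2.58; none of the differences passed edgeR's interaction test.

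In the colon of knockout mice (4 LPS and 5 PBS libraries, 7 of the 9 mice described here having given a colon library too), 107 genes (0.718%) were called as well, with 95 (0.637%) higher and 12 (0.0805%) lower. Of the 107 small-intestinal genes, 47 were called in the colon. Shared rises included Irf7 (3.40, edgeR adjusted p = 1.25e-06), Mt1 (3.77, 6.82e-05), Serpina3n (4.21, 6.82e-05) and Sod2 (2.44, 0.000155), and Wfdc1 fell in both (-2.09, 0.00611). Ms4a6d stood at a log2 fold change of 1.28 in the colon (edgeR adjusted p = 0.506) and Sparcl1 at -0.27 (0.864). The interaction of region and treatment within knockouts called 0 genes by edgeR (615 at an unadjusted p under 0.05, 72 by DESeq2), in a fit that did not model the shared mice.

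At 2 h after LPS, in small-intestinal glia of other mice that carried Plp1eGFP without the knockout (4 LPS and 4 PBS libraries in a separate table), 144 of 13107 genes (1.10%) differed, 141 (1.08%) higher and 3 (0.0229%) lower. Of the 107 knockout genes at 24 h, 104 were tested at 2 h and 14 were called there in the same direction, none in the opposite one. Mt2 stood at 4.74 at 2 h (edgeR adjusted p = 2.37e-06) and 4.43 ± 0.72 at 24 h, and Icam1 at 5.74 (5.38e-05) and 2.11 ± 0.51. Irf7 and Serpina3n, which rose at 24 h, were at 0.30 and 0.20 at 2 h (edgeR adjusted p = 1 and 1). Il6 was at 6.66 at 2 h (edgeR adjusted p = 5.38e-05) and at 0.20 ± 1.33 at 24 h. Of 25 immediate early and stress genes, 16 were called at 2 h. Time and genotype both differ between these comparisons, and the difference between them was not tested.

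Of the 107 genes, 106 could be placed on GRCm38.p6 from RefSeq, and 20 of them lay within 200 kb of another called gene, in 9 groups. Several groups were neighbouring members of one family. Serpina3f (chr12:104214544-104221129) and Serpina3n (chr12:104406646-104414334) lie near each other on chromosome 12, Gbp3 (chr3:142560016-142573213) and Gbp2 (chr3:142620663-142638008) on chromosome 3, and Mt2 (chr8:94172618-94173567) and Mt1 (chr8:94178883-94180327) on chromosome 8. Ms4a4a (chr19:11375488-11392915), Ms4a6c (chr19:11469353-11487182) and Ms4a6d (chr19:11586606-11604804) share a stretch of chromosome 19 with BE692007, and H2-T23 (chr17:36029977-36032701) and H2-T22 (chr17:36037128-36042742) one of chromosome 17. In 1 group the directions differed: on chromosome 2, Zbp1 (chr2:173206612-173218959) rose and Pmepa1 (chr2:173224458-173276731) fell.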

How the data were processed

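RNA was made into Smart-seq2 libraries, which carry no molecular identifiers, per the labels' protocols. The authors deposited a table of raw counts per gene symbol for the 24 h experiment, with 37 libraries and 21076 symbols, of which 25 read as calendar dates, and a second table of deposited counts that holds the 2 h libraries. Trim Galore 0.4.4, STAR 2.5.3, DESeq2 and GRCm38 are named in the submitters' processing notes. The counter, the annotation and the use of strand are not given in the sources used here.

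Genes were filtered with filterByExpr, scaled with TMM and fitted with edgeR 4.0.16 (R 4.3.3) in one quasi-likelihood model of the 8 groups of the 24 h table. Tests were two-sided, and a gene was called at a Benjamini-Hochberg adjusted p under 0.05 over all genes tested. Each standard error is the fold change divided by the square root of its F value. Mice 11, 17, 10, 6 and 21 are LPS replicates 1 to 5 and mice 12, 15, 20 and 7 are PBS replicates 1 to 4. CPM is counts-per-million scaled by TMM. A fold against a group with 3 or fewer counts in every library was computed against 3 counts per library. The test was checked on simulated counts with known changes in 200 genes, and 1 unchanged gene was called there.

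Genes were named by rule. Among called genes with a mean log2 CPM of at least 3 and no overlap between the groups, predicted genes left out, these were the 15 largest rises, the 10 largest falls and up to 4 members per response list by adjusted p, with Gpr37, Gfap, Sox10 and S100b added. Some genes are not reported here. Called genes outside this rule (such as Vim, Gbp4, Ifitm3, Zbp1, Marco and the exceptions between genotypes) and list members that were not called were chosen after their values were seen. The gene lists, the naming rule and the comparisons were chosen with earlier results of these data known.

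Same-numbered LPS and PBS libraries did not deviate together (correlations of 0.043, -0.079, 0.083 and 0.002), so the numbers were not taken as pairs. Alternatives were RLE scaling, DESeq2 1.42.0, no filter, fewer groups, covariates for sex and for mouse number, a replicate block and each library left out. The covariate for mouse number divided mice numbered up to 10 from those numbered 11 and above. Leaving out the 2 shallowest LPS libraries, of mice 10 and 6, was chosen after seeing the data. Promoter windows came from RefSeq on GRCm38.p6.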

Additional observations from a re-analysis of the deposited data

Results flagged for a closer look

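In a check of the highest and the lowest library of each group, 9 of 128 groups of values held a library whose distance to the nearest other library exceeded the 95% limit of Dixon's test on log2(CPM + 1) values. The limit was not applied to unlogged CPM, the scale in which values are given here. Chance gives about 1 in 20 groups. Of the 9, 4 were from mouse 11, 4 from mouse 7 and 1 from mouse 20.

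Mouse 11 (LPS) was low for Mt2, at 454 CPM against 1750 to 2730 CPM in the other LPS libraries. It was high for Ckb, at 278 CPM against 99.5 to 133 CPM, and for S100b, at 448 CPM against 57.5 to 89.1 CPM. Its glial identity genes summed to 21400 CPM against 4710 to 7050 CPM.

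Mouse 7 (PBS) was low for Irf7, at 34.5 CPM against 68.7 to 73.6 CPM in the other PBS libraries. Its marker sums were 32.5 CPM for endothelium against 1310 to 2650 CPM, 26.1 CPM for epithelium against 1160 to 1270 CPM and 49.1 CPM for mesothelium against 2220 to 4730 CPM. For Acod1, mouse 20 (PBS) stood at 0.0311 CPM, which is 1 count, and the other 3 PBS libraries at 0.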

How the results depend on the processing

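The count of 107 genes was 119 with RLE scaling, 100 with no filter and 104 with a sex covariate. It was 138 with a covariate that divided mice numbered up to 10 from those above, and 92 with mice numbered 11 and above alone. It was 527 with DESeq2 (370 higher, 157 lower, all 107 among them), 47 when the 2 groups were fitted alone (30 shared) and 30 without the 2 shallowest LPS libraries (30 shared). With the replicate number as a replicate block it was 93, of which 86 were shared, and the mean correlation of same-numbered libraries was 0.012 against -0.003 for others. Leaving out 1 library gave 46 to 352 genes. The genotype interaction, 0 genes, gave 59 with DESeq2, 3 with the 4 groups alone, 1 with a sex covariate and 0 to 2 with 1 library left out. The wild-type contrast, 1069 genes, gave 641 without LPS replicate 1 (mouse 3), of which 597 were shared, an alternative chosen after seeing the data. The region interaction, 0 genes, gave 72 with DESeq2 and 0 to 0 with 1 library left out. The cause of these differences was not tested.

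Of the 107 genes, 15 were called under every alternative run on the contrast: Acod1, Bst2, Ccl5, Cp, H2-T23, Irf7, Isg15, Ms4a6c, Mt1, Mt2, Serpina3n, Sod2, Usp18, Wfdc1 and Zfas1. Among named genes the fold change turned sign for Sox10 (0.48) with mice numbered 11 and above alone, for Gfap (-0.12) without the 2 shallow LPS libraries, and for Gpr37, at 0 to 2 counts, without PBS replicate 2 (0.18) or LPS replicate 5 (0.20; its range without 1 library was -1.23 to 0.20). Shallow libraries limit low genes most, and a change of log2 size 1 was recovered in 4.48% of simulated cases.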
